A study of Mus musculus with 32 samples.

Results

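The LIF and STAT3 pathway genes described here are 10 genes chosen by name: the receptor genes Lifr, Il6st and Osmr, the signal transducers Jak1, Ptpn11 and Stat3, the feedback inhibitor Socs3, and the target genes Pim1, Tfcp2l1 and Gbx2. Each symbol was matched to a single Ensembl gene among the 31053 rows of the count tables, and 9 of the 10 were among the 15280 genes with enough reads to be tested. The cells were mouse embryonic stem cells of the line C1, which lack endogenous β-catenin (β-catenin-/-) and carry EF1a-rtTA and a TRE3G-driven fusion in which mutant β-catenin S33Y is joined to mCherry and a destabilizing domain. In this line doxycycline (dox) starts transcription of the fusion and trimethoprim (TMP) stabilizes its protein. It is a single lentivirally transduced line in a knockout background, so every group shares the deletion and the transgenes. RNA was measured in 8 groups with 4 libraries each, which the labels number as biological replicates without naming separate cultures, so p-values measure the spread between these libraries.

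The labels give each group's β-catenin and whether its culture was pluripotent or differentiating, and the sorts, media, drugs and days come from the methods of the study. At day 0 the cells were pluripotent, with LIF present. C1 had received TMP alone and was sorted as living cells, C1M had received dox and TMP and was sorted for middle mCherry, and C1H had the same treatment and was sorted for high mCherry. The day 4 groups had been differentiated in NDiff227 without LIF. C1T came from C1 and was kept in TMP alone, C1MV and C1HV came from C1M and C1H and were kept in DMSO without inducers, and C1MDT and C1HDT came from C1M and C1H and were kept in dox and TMP. The growth protocol in the labels names serum and LIF for all 32 samples, those of day 4 included. The methods instead describe 2i/L at day 0, a mixture of a GSK3 inhibitor, a MEK inhibitor and LIF, and plain NDiff227 at day 4. That the day 4 cells were without LIF therefore rests on the methods and goes against that protocol, which bears on every comparison between the days. By the methods, loss of LIF and loss of the inhibitors coincide between day 0 and day 4 and cannot be told apart. Dox exposure and mCherry sorting likewise coincide with β-catenin induction, and C1MV and C1HV also differ from C1T in having no TMP.

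LIF is a cytokine of the interleukin-6 family that maintains self-renewal of mouse embryonic stem cells. It binds LIFR, which pairs with gp130, the product of Il6st. The kinase JAK1, bound to these receptors, then phosphorylates STAT3, which enters the nucleus and activates genes including Socs3, whose product blocks the receptor complex and so closes a feedback loop. Tfcp2l1, Gbx2 and Pim1 are known STAT3 targets that can each sustain self-renewal when overexpressed. β-catenin is the effector of canonical Wnt signalling and relieves repression by TCF3 of naive pluripotency genes such as Tfcp2l1.

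The libraries held 1366951 to 3648787 reads counted on genes (median 2402468). Levels are given in CPM, the count relative to the TMM-scaled library size, and a floor of 3 counts corresponded to 0.822 to 2.19 CPM. Log2 fold changes come from edgeR's quasi-likelihood test in a single fit of all libraries, SE is the standard error, and FDR is the Benjamini-Hochberg adjusted p over the 15280 genes, with calls at FDR under 0.05. Ctnnb1, the gene of β-catenin, followed the labels in part. Its level was 7.81 ± 2.63 CPM (SD, n = 4) in C1, 12.3 ± 3.84 in C1M and 41.2 ± 5.701 in C1H. At day 4 it was 29.2 ± 4.29 in C1MDT and 30.8 ± 3.75 in C1HDT, against 6.21 to 9.74 in the groups without dox. The moderate and high labels were thus not reflected in its means with inducers kept at day 4, and Ctnnb1 in C1M was not separated from C1 (log2 fold change 0.61, SE 0.25, FDR 0.0553). The sorts were on mCherry, however, and these counts measure RNA. The paper reports dose-dependent Axin2, a β-catenin target gene, in the sorted cells, and dose-dependent mCherry in C1MDT and C1HDT. How much RNA of the fusion is counted under Ctnnb1 was not tested. Summed naive pluripotency markers ran from 1928 to 2360 CPM over the day 0 libraries and from 261 to 1006 over those of day 4. Summed markers of fibroblast feeder cells reached at most 8.15 CPM in any library, and Postn, one of the markers that define them, was at 0 in every library of 7 of the 8 groups.

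Promoter sequences are given for the 4 members with the largest changes, because STAT3 binds the palindrome TTCNNNGAA. The windows come from RefSeq on GRCm38.p6 and run from 250 bases before to 50 bases after the annotated start. Letters that match the palindrome are in capitals. The Socs3 window was chr11:117969317-117969616 (minus strand), that of Tfcp2l1 chr1:118627695-118627994 (plus), that of Stat3 chr11:100939491-100939790 (minus) and that of Gbx2 chr1:89931127-89931426 (minus).
Socs3: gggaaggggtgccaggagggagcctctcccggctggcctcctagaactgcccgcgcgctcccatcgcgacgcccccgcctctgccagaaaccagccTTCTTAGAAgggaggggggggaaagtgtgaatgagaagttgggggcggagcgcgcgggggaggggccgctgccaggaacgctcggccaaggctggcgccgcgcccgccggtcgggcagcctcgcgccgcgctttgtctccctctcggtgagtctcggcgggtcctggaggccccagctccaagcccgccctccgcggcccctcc
Tfcp2l1: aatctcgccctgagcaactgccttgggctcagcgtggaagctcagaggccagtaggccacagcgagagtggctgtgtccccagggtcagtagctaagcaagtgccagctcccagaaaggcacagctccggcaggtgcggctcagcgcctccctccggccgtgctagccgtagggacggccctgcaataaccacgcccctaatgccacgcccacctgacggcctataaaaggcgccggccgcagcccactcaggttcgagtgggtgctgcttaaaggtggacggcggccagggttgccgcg
Stat3: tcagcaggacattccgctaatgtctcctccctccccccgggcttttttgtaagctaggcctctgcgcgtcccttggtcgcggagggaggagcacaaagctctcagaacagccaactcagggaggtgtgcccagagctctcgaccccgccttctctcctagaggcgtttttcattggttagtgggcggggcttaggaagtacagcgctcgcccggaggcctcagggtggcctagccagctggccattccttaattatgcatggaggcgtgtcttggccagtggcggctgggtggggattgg
Gbx2: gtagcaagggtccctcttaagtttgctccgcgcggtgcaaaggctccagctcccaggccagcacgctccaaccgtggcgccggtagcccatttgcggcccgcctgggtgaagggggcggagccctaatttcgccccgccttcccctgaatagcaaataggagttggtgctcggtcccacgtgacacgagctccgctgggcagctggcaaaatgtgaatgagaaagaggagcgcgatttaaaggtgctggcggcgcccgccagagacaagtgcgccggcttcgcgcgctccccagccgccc
All 10 members had at least 1 window, 12 in all. The palindrome was present in the Socs3 window alone, as TTCTTAGAA beginning at position -154 from the RefSeq start. The Ensembl span of Socs3, given below, begins further upstream, at 117970047 on the minus strand. The whole Socs3 window, with its match, therefore lies inside the gene by that annotation. Of 32851 promoter windows of the same length 8.3% hold this palindrome, which reads the same on both strands. The TCF core CTTTGAT, searched on both strands (the other reads ATCAAAG), was in none of the 12 windows and in 3.73% of all windows. A match is a string of letters and not a measured binding site.

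From day 0 to day 4, Socs3, Tfcp2l1 and Stat3 fell and Gbx2 rose in every fraction. In C1T vs C1, the comparison without induced β-catenin, 7 of the 9 tested members passed the threshold, against 49.3% of all tested genes, with 3 higher (all genes 24.4%) and 4 lower (all genes 24.9%). In C1MV vs C1M the count was 7 (45.9% of all genes), 4 higher (22%) and 3 lower (23.9%). In C1MDT vs C1M it was 6 (52.4%), 2 higher (24.5%) and 4 lower (27.9%). In C1HV vs C1H it was 6 (47%), 3 higher (22%) and 3 lower (25.1%), and in C1HDT vs C1H 5 (55.7%), 1 higher (26.3%) and 4 lower (29.4%). About every other gene passed in these comparisons, so the members' counts alone set them little apart, and the sizes of the changes are given by gene below. C1MV and C1MDT share their day 0 libraries, and so do C1HV and C1HDT. The share without a feature or with an ambiguous one, of all counts in a library's rows, also moved with the day. It was 9.27 to 11.49% in the 12 libraries of day 0 and 5.01 to 7.08% in the 20 of day 4. It differed between groups within a day as well, as given below, and its part in these changes was not tested.

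**Figure D1:**
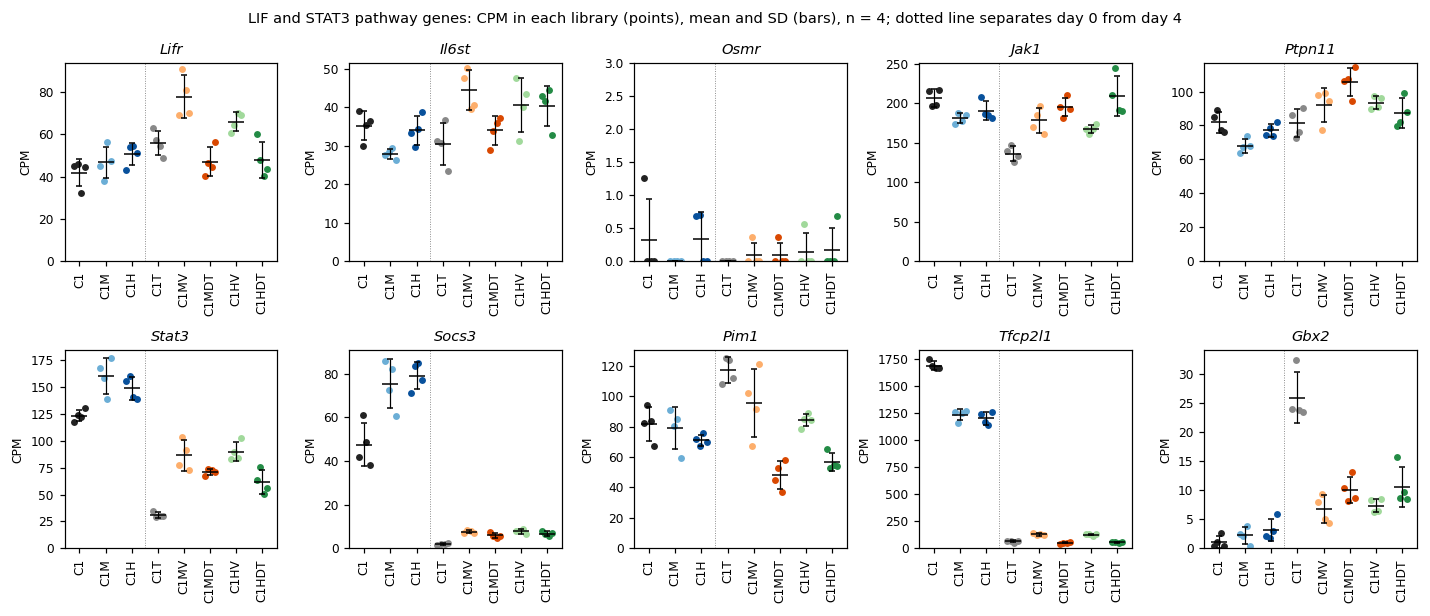
CPM of the 10 members in each of the 32 libraries (points), with the group mean and SD (horizontal mark and bar, n = 4); each panel has its own linear axis from 0, and the dotted line separates day 0 from day 4. Socs3, Tfcp2l1 and Stat3 are high at day 0, Gbx2 is highest in C1T at 23.5 to 32.5 CPM, and Osmr stays at or below 1.26 CPM.

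Among the receptors, Lifr was detected in every group, and its mean was highest in C1MV. Lifr (ENSMUSG00000054263, GRCm38 chromosome 15, 7090614-7197489, plus strand) encodes the ligand-binding chain of the LIF receptor. Its libraries held 44.9, 45.9, 32.2 and 44.6 CPM in C1, 62.9, 57.05, 54.3 and 48.96 in C1T, 68.9, 90.6, 81.1 and 69.9 in C1MV and 60.5, 64.2, 70.1 and 68.96 in C1HV. The C1T libraries were all above those of C1, and those of C1MV were all above those of C1T. With inducers kept, the libraries held 40.4, 46.5, 44.4 and 56.4 CPM in C1MDT and 59.9, 47.8, 40.2 and 43.6 in C1HDT, and those of C1M (44.997, 37.96, 56.1 and 47.5) and C1H (43.3, 53.7, 54.6 and 50.9) overlapped them. Lifr rose in C1T vs C1 by 0.42 (SE 0.13, FDR 0.00597), in C1MV vs C1M by 0.74 (SE 0.12, FDR 5.42e-08) and in C1HV vs C1H by 0.38 (SE 0.12, FDR 0.00698). It was not called in C1MDT vs C1M (0.02, SE 0.13, FDR 0.925) or in C1HDT vs C1H (-0.07, SE 0.12, FDR 0.643). No neighbours in the order of the 8 group means differed, from 77.6 CPM in C1MV down to 41.9 in C1.

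Il6st (ENSMUSG00000021756, chromosome 13, 112464070-112510086, plus strand), which encodes the signalling chain gp130, had group means from 27.9 CPM in C1M to 44.5 in C1MV. Its libraries held 31.2, 30.8, 36.7 and 23.5 CPM in C1T, 27.6, 28.4, 29.3 and 26.4 in C1M and 47.6, 50.2, 39.6 and 40.7 in C1MV, and those of C1MV lay above all of both other groups. Il6st rose in C1MV vs C1M by 0.68 (SE 0.14, FDR 2.32e-05), while the change in C1T vs C1 was -0.196 (SE 0.15, FDR 0.297). The difference between these changes was 0.87 (SE 0.21, FDR 0.000582). In C1MDT, C1HV and C1HDT the changes from day 0 were 0.297, 0.26 and 0.25 (FDR 0.0726, 0.129 and 0.12), not called. Their differences from the change in C1T had the same direction as in C1MV and were not called, at 0.49, 0.46 and 0.44 (FDR 0.0742, 0.11 and 0.105). At day 4 Il6st was also higher than in C1T in C1MV, by 0.53 (SE 0.15, FDR 0.00201). The smaller differences from C1T in C1HV (0.39, SE 0.15, FDR 0.0396) and C1HDT (0.38, SE 0.15, FDR 0.0332) each lost the call when any of 6 of the 8 libraries compared was left out: replicates 1, 2 and 4 of C1T in both, with replicates 1, 3 and 4 of C1HV (log2 fold changes over all omissions 0.33 to 0.51) or replicates 1, 2 and 3 of C1HDT (0.31 to 0.48). Osmr (ENSMUSG00000022146, chromosome 15, 6813577-6874969, minus strand), the oncostatin M receptor and a neighbour of Lifr, had 0 to 3 counts per library. It was at the floor in all 8 groups, with 12 counts in 7 libraries and none in C1M or C1T, so no difference was detectable at this depth.

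Of the transducers, Jak1 fell from day 0 to day 4 in C1T, and Ptpn11 rose in 3 of the other fractions. Jak1 (ENSMUSG00000028530, chromosome 4, 101152367-101265282, minus strand), the main receptor-bound kinase of this pathway, was lowest in C1T. Its libraries held 216, 196, 197 and 216 CPM in C1 and 139, 147, 125 and 133 in C1T, which did not overlap, and Jak1 fell in C1T vs C1 by 0.602 on the log2 scale (SE 0.09, FDR 5.05e-10). No call was made in the other fractions, where the changes were -0.01, 0.11, -0.19 and 0.13 for C1MV, C1MDT, C1HV and C1HDT. The change in C1HV was called lower under DESeq2 (-0.199, FDR 0.0354) and 3 further settings. The differences of these changes from that in C1T were 0.59 (SE 0.12, FDR 3.11e-05), 0.71 (SE 0.12, FDR 2.98e-07), 0.41 (SE 0.12, FDR 0.00541) and 0.73 (SE 0.12, FDR 1.01e-07), and all 4 passed. Among the neighbours in the order of the group means, C1T was the group that differed from the next, C1HV at 167 CPM. The 3′ end of Jak1 overlaps that of Raver2 on the opposite strand by 4 bases.

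Ptpn11 (ENSMUSG00000043733, chromosome 5, 121130533-121191397, minus strand) encodes the phosphatase SHP2, which links gp130 to the ERK branch. Its libraries held 63.7, 67.4, 73.7 and 67.7 CPM in C1M and 106, 108, 94.4 and 114 in C1MDT, the lowest and the highest group, without overlap. Ptpn11 rose in C1MDT vs C1M by 0.63 (SE 0.099, FDR 1.69e-08), in C1MV vs C1M by 0.43 (SE 0.102, FDR 0.000197) and in C1HV vs C1H by 0.28 (SE 0.102, FDR 0.019). In C1T vs C1 it was not called, with a 95% interval of -0.23 to 0.19. No neighbouring groups differed in the order of its means.

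Stat3 itself fell during differentiation and fell most in C1T, the cells that were never induced. Stat3 (ENSMUSG00000004040, chromosome 11, 100885098-100939540, minus strand) encodes the transcription factor that LIF activates. At day 0 its libraries held 117, 124, 122 and 130.4 CPM in C1, 167, 158, 139 and 177 in C1M and 155, 160.04, 140.3 and 139 in C1H. All libraries of C1M and C1H were above those of C1. At day 4 they held 34.6, 28.7, 30.04 and 30.03 CPM in C1T, 77.4, 104, 91.2 and 72.8 in C1MV and 83.2, 89.2, 84.3 and 102 in C1HV. With inducers kept they held 66.9, 74.1, 72.6 and 70.5 in C1MDT and 63.6, 75.96, 50.3 and 56.2 in C1HDT. Every library with earlier or continued induction thus lay above all 4 of C1T and below all 12 of day 0. Stat3 changed by -1.998 (SE 0.12, FDR 4.39e-34) in C1T vs C1, 3.995-fold lower than in C1. The changes were smaller in the other fractions, at -0.87 (SE 0.097, FDR 1.9e-14) in C1MV, -1.16 (SE 0.097, FDR 4.01e-22) in C1MDT, -0.74 (SE 0.099, FDR 8.63e-11) in C1HV and -1.28 (SE 0.0997, FDR 1.85e-24) in C1HDT. Each of these differed from the change in C1T, by 1.13 (SE 0.16, FDR 1.46e-09), 0.84 (SE 0.16, FDR 7.7e-06), 1.26 (SE 0.16, FDR 3.1e-11) and 0.72 (SE 0.16, FDR 0.000167). Stat3 and Stat5a overlap at their 3′ ends on opposite strands by 72 bases, and the strand setting of the counting is not given in the sources used here. Stat5a was low, with group means from 1.54 CPM in C1T to 4.32 in C1HV.

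The feedback inhibitor Socs3 followed the same course with a larger change. Socs3 (ENSMUSG00000053113, chromosome 11, 117966079-117970047, minus strand) is widely read as an immediate output of STAT3. At day 0 its libraries held 41.97, 61.1, 48.8 and 38.4 CPM in C1, 85.7, 72.7, 82.2 and 60.7 in C1M and 71.2, 83.3, 85.01 and 76.9 in C1H. In C1T they held 1.44, 2.08, 1.91 and 2.61 CPM, from 3, 5, 4 and 4 counts, close to the floor. The libraries held 6.85, 8.24, 7.996 and 7.13 CPM in C1MV, 7.75, 7.95, 9.03 and 6.51 in C1HV, 7.498, 5.899, 4.75 and 5.85 in C1MDT and 7.82, 6.69, 5.45 and 7.15 in C1HDT. All 16 of these were above the 4 of C1T and below the 12 of day 0. Socs3 changed by -4.54 (SE 0.25, FDR 4.38e-37) in C1T vs C1. In the other fractions the change was -3.297 (SE 0.17, FDR 1.8e-39) in C1MV, -3.69 (SE 0.18, FDR 3.48e-44) in C1MDT, -3.31 (SE 0.18, FDR 3.23e-38) in C1HV and -3.52 (SE 0.17, FDR 2.18e-43) in C1HDT. The change differed from that in C1T by 1.25 (SE 0.39, FDR 0.0114) for C1MV and 1.23 (SE 0.398, FDR 0.015) for C1HV, whereas 0.85 (SE 0.3996, FDR 0.111) for C1MDT was not called. For C1HDT the difference of 1.02 (SE 0.39, FDR 0.0419) lost its call when any of 7 of 16 libraries was left out, namely C1 replicate 2, C1H replicate 1, C1HDT replicates 1 and 4 and C1T replicates 1, 2 and 3 (range over all omissions 0.89 to 1.16). It was also lost with all libraries under DESeq2 (FDR 0.073), with library size only (0.0566) and with no filter on low counts (0.069).

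The 3 targets went in different directions. Tfcp2l1 (ENSMUSG00000026380, chromosome 1, 118627945-118685168, plus strand), a transcription factor of the naive state, fell most. At day 0 its libraries held 1748, 1687, 1664 and 1665 CPM in C1, 1263, 1159, 1255 and 1271 in C1M and 1239, 1165, 1139.9 and 1264 in C1H, so that C1 was above both induced fractions in every library. At day 4 they held 69.1, 68.7, 51.5 and 68.5 CPM in C1T, 143, 119.8, 130.5 and 123 in C1MV and 132, 129, 118 and 134 in C1HV. With inducers kept they held 44.4, 52.7, 52.8 and 58.5 in C1MDT and 58.8, 60.2, 47.3 and 56.9 in C1HDT. The 8 libraries after withdrawal, from 118 to 143 CPM, were above the other 12 of day 4, from 44.4 to 69.1 CPM. Tfcp2l1 changed by -4.71 (SE 0.09, FDR 4.86e-97) in C1T vs C1, by -4.55 (SE 0.08, FDR 1.6e-95) in C1MDT vs C1M and by -4.43 (SE 0.08, FDR 3.94e-94) in C1HDT vs C1H. After withdrawal the change was -3.26 (SE 0.08, FDR 9.38e-81) in C1MV vs C1M and -3.23 (SE 0.08, FDR 1.03e-79) in C1HV vs C1H. The difference from C1T was 1.46 (SE 0.11, FDR 2.17e-23) for C1MV and 1.48 (SE 0.11, FDR 2.18e-23) for C1HV. With inducers kept it was not called, at 0.16 (SE 0.12, FDR 0.353) for C1MDT and 0.29 (SE 0.12, FDR 0.0634) for C1HDT.

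Gbx2 (ENSMUSG00000034486, chromosome 1, 89927956-89931179, minus strand), a homeobox gene, moved opposite to Tfcp2l1 between the days. At day 0 it was near the floor, with 1, 2, 5 and 1 counts in the C1 libraries (0.4197, 1.13, 2.595 and 0.479 CPM), 2.55, 2.13, 3.91 and 0.413 CPM in C1M and 2.04, 1.74, 2.93 and 5.89 CPM in C1H. In C1T its libraries held 23.99, 32.5, 23.8 and 23.5 CPM, the highest of any group and without overlap with any other library. They held 8.06, 9.36, 5.09 and 4.28 CPM in C1MV, 8.27, 6.25, 6.45 and 8.46 in C1HV, 10.4, 8.11, 13.1 and 8.603 in C1MDT and 15.6, 8.599, 9.64 and 8.51 in C1HDT. Gbx2 rose in C1T vs C1 by 4.499 (SE 0.38, FDR 6.94e-22). It rose less in the other fractions, by 1.55 (SE 0.37, FDR 0.000248) in C1MV, 2.098 (SE 0.34, FDR 4.69e-08) in C1MDT, 1.25 (SE 0.36, FDR 0.00258) in C1HV and 1.801 (SE 0.32, FDR 4.85e-07) in C1HDT. These changes differed from that in C1T by -2.95 (SE 0.62, FDR 8.39e-05), -2.402 (SE 0.62, FDR 0.00133), -3.25 (SE 0.597, FDR 5.12e-06) and -2.699 (SE 0.58, FDR 0.000105). The day 0 counts of 1 to 14 limit the precision of each of these values.

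Pim1 (ENSMUSG00000024014, chromosome 17, 29490753-29496112, plus strand) encodes a serine/threonine kinase that promotes survival. Its libraries held 82.3, 93.98, 83.6 and 67.1 CPM in C1, 90.8, 80.5, 85.1 and 59.4 in C1M, 71.6, 66.9, 75.5 and 69.8 in C1H and 108, 125, 124 and 112 in C1T. C1T was above C1 in every library. After withdrawal they held 102, 67.03, 91.6 and 121 CPM in C1MV and 78.5, 85.2, 88.6 and 84.6 in C1HV, and with inducers kept 44.99, 52.7, 37.1 and 58.2 in C1MDT and 65.3, 52.6, 54.5 and 54.1 in C1HDT. Pim1 rose in C1T vs C1 by 0.53 (SE 0.12, FDR 9.24e-05), fell in C1MDT vs C1M (-0.72, SE 0.12, FDR 5.51e-07) and fell in C1HDT vs C1H (-0.32, SE 0.12, FDR 0.0212). The last of these lost its call without replicate 1 or 3 of C1H or without replicate 2, 3 or 4 of C1HDT (-0.37 to -0.27 over all omissions). The change differed from that in C1T by -1.24 (SE 0.17, FDR 7.34e-09) for C1MDT and by -0.85 (SE 0.17, FDR 4.7e-05) for C1HDT. After withdrawal the differences from C1T were not called (-0.28, SE 0.17, FDR 0.228, and -0.28, SE 0.17, FDR 0.257).

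**Figure D2:**
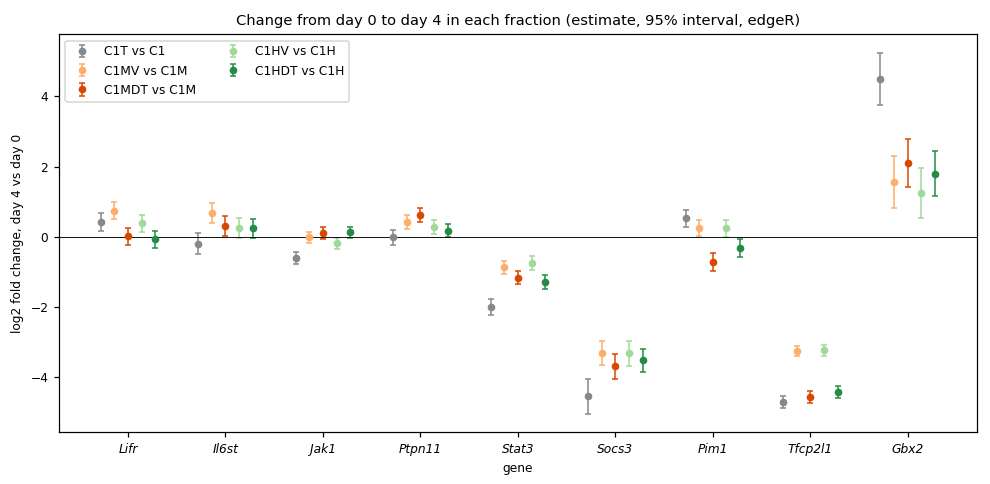
Log2 fold change from day 0 to day 4 of the 9 tested members (points, edgeR) with 95% intervals, in C1T and in the 4 fractions with earlier or continued induction. Stat3 and Jak1 are lowest in C1T, Gbx2 is highest there at 4.499, and Tfcp2l1 separates the withdrawn fractions (-3.26 and -3.23) from the other 3.

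Whether the change over the 4 days differed from that of cells never induced was tested as the difference between the change in each fraction and that in C1T, and all 4 such tests share the libraries of C1 and C1T. The difference passed for 7 of 9 members in C1MV (22.5% of all genes), 6 higher (11%) and 1 lower (11.6%). It passed for 5 in C1MDT (24.4%), 3 higher (11.8%) and 2 lower (12.6%), for 5 in C1HV (21.9%), 4 higher (10.7%) and 1 lower (11.2%) and for 6 in C1HDT (25.2%), 3 higher (12.7%) and 3 lower (12.6%). The count of 6 includes Socs3, whose call was lost under the settings given above. Stat3, Jak1 and Gbx2 passed in each of the 4. The difference for Lifr in C1HDT (-0.49, SE 0.18, FDR 0.0355) lost its call when any of 9 of 16 libraries was left out: C1 replicate 3, C1H replicates 2, 3 and 4, C1HDT replicates 2, 3 and 4 and C1T replicates 1 and 2 (range over all omissions -0.605 to -0.37). For Ptpn11 the difference was 0.44 (SE 0.15, FDR 0.0171) in C1MV and 0.64 (SE 0.14, FDR 0.000217) in C1MDT.

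At day 0, with LIF present, the induced fractions had more Stat3 and Socs3 and less Tfcp2l1 than C1. In C1M vs C1, 4 of 9 members passed (26.3% of all tested genes), 2 higher (14.3%) and 2 lower (12%). In C1H vs C1 it was 4 (25.9%), 3 higher (13.8%) and 1 lower (12.1%). Socs3 rose by 0.68 (SE 0.13, FDR 1.25e-05) in C1M and 0.75 (SE 0.13, FDR 1.13e-06) in C1H. A single C1M library, at 60.7 CPM, was below the highest of C1 at 61.1. Stat3 rose by 0.37 (SE 0.09, FDR 0.00105) in C1M and 0.27 (SE 0.09, FDR 0.0221) in C1H. Tfcp2l1 changed by -0.45 (SE 0.07, FDR 7.41e-09) in C1M and -0.49 (SE 0.07, FDR 3.16e-10) in C1H, 1.37-fold and 1.41-fold lower than in C1. Of these, Stat3 in C1H lost its call without replicate 1 or 3 of C1 or replicate 1 or 2 of C1H (0.21 to 0.295 over all omissions). Gbx2 in C1H (1.42, SE 0.54, FDR 0.0398) lost it without replicate 1, 2 or 4 of C1 or replicate 3 or 4 of C1H (0.96 to 2.15), and when C1 and C1H were fitted alone (FDR 0.0586). Ptpn11 in C1M (-0.26, SE 0.104, FDR 0.0499) lost it without replicate 1 or 2 of C1 or replicate 1, 2 or 4 of C1M (-0.32 to -0.24), with library size only (FDR 0.152) and with no filter (0.0932). Without C1 replicate 1 the count in C1H vs C1 was 2. Not uniquely aligned counts made up 49.4 to 51.3% of all rows in C1 and 53.1 to 54.1% in C1M, while C1H overlapped C1. Counts without a feature or ambiguous made up 10.06 to 10.71% in C1 and 11.02 to 11.49% in C1H, while C1M overlapped C1. Marker sums differed over the same comparisons, and the part of these shares and sums was not tested. Naive markers summed to 2205 to 2360 CPM in C1, 1933 to 2136 in C1M and 1928 to 2008 in C1H, without overlap with C1. The 8 markers did not move one way, with 3 higher (Nanog, Prdm14 and Tcl1) and 3 lower (Zfp42, Esrrb and Klf2) in C1M vs C1 and a median log2 fold change of 0.22, and 1 higher and 1 lower in C1H vs C1 with a median of -0.14. Mesoderm markers summed to 53.2 to 60.2 CPM in C1, 32.3 to 40.04 in C1M and 36.3 to 47.1 in C1H, also without overlap, with 2 of 4 tested lower in C1M and 1 in C1H and none higher, and T, which defines mesoderm, had 0 or 1 counts in each of these libraries. The sums of endoderm markers (49.4 to 61.7 CPM in C1, 59.02 to 84.4 in C1M and 59.97 to 76.2 in C1H) overlapped, while 2 of the 8 were called higher in C1M and 0 in C1H and 0 were lower in either, with median log2 fold changes of 0.801 and 0.78.

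No member passed between the sorted fractions. In C1H vs C1M, 0 of 9 members passed in edgeR, 0 were under an unadjusted p of 0.05 and 0 passed in DESeq2, where 1.77% of all genes passed in edgeR, 0.713% higher and 1.06% lower. Over the same step Ctnnb1 rose by 1.76 (SE 0.18, FDR 1.56e-13). The intervals were narrow for Tfcp2l1, with -0.17 to 0.09 on the log2 scale, Stat3 with -0.28 to 0.08 and Socs3 with -0.17 to 0.31. They were wide for Gbx2 (-0.47 to 1.22).

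At day 4, all 4 groups with earlier or continued induction had more Stat3, Socs3 and Jak1 and less Gbx2 and Pim1 than C1T. These comparisons share the C1T libraries. In C1MV vs C1T, 8 of 9 members passed (30.2% of all genes), 6 higher (15.3%) and 2 lower (14.9%). In C1MDT vs C1T it was 7 (33.4%), 4 higher (16.9%) and 3 lower (16.5%). In C1HV vs C1T it was 7 (28%), 5 higher (13.7%) and 2 lower (14.3%), and in C1HDT vs C1T 6 (33.5%), 4 higher (17.4%) and 2 lower (16.1%). Stat3 was higher by 1.502 (SE 0.12, FDR 4.84e-22) in C1MV, 1.21 (SE 0.12, FDR 7.42e-16) in C1MDT, 1.53 (SE 0.13, FDR 5.04e-22) in C1HV and 0.99 (SE 0.13, FDR 3.2e-11) in C1HDT. Socs3 was higher by 1.92 (SE 0.36, FDR 3.36e-06), 1.53 (SE 0.37, FDR 0.000388), 1.98 (SE 0.37, FDR 3.62e-06) and 1.77 (SE 0.36, FDR 1.99e-05) in the same order. It nevertheless remained far below its day 0 level in each group. Jak1 was higher by 0.395, 0.52, 0.295 and 0.61, with FDR from 3.36e-10 in C1HDT to 0.00529 in C1HV. Gbx2 was lower, by -1.91, -1.36, -1.83 and -1.28, with FDR of at most 3.11e-06.

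Against C1T, Tfcp2l1 was higher in the withdrawn groups and was not higher in those kept in inducers. Tfcp2l1 was higher than in C1T by 1.01 (SE 0.09, FDR 6.29e-19) in C1MV and 0.99 (SE 0.09, FDR 7.55e-18) in C1HV, whereas it was -0.29 (SE 0.1003, FDR 0.017) in C1MDT and -0.204 (SE 0.1001, FDR 0.108), not called, in C1HDT. The call in C1MDT was lost without replicate 1 or 3 of C1MDT or replicate 1, 2 or 4 of C1T (-0.38 to -0.22 over all omissions). Lifr was higher in C1MV by 0.48 (SE 0.12, FDR 0.000867) and was not called in the other 3 groups. Pim1 was lower in each, by -0.33 (SE 0.11, FDR 0.0218) in C1MV, -1.29 (SE 0.12, FDR 1.8e-15) in C1MDT, -0.48 (SE 0.12, FDR 0.00089) in C1HV and -1.05 (SE 0.12, FDR 5.07e-12) in C1HDT. The smallest of these, in C1MV, was lost without replicate 2 or 3 of C1MV or replicate 2 or 3 of C1T (-0.17 without C1MV replicate 2, FDR 0.284) and with library size only (FDR 0.0753).

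Where inducers were kept during differentiation, Tfcp2l1, Pim1, Lifr and Stat3 were lower than after withdrawal. In C1MDT vs C1MV, 4 of 9 members passed (12.6% of all genes), 0 higher (6.64%) and 4 lower (5.95%), and in C1HDT vs C1HV 5 (16%), 1 higher (9.1%) and 4 lower (6.88%). Tfcp2l1 changed by -1.296 (SE 0.09, FDR 2.47e-26) in the middle and -1.19 (SE 0.09, FDR 8.99e-23) in the high fraction. Pim1 changed by -0.96 (SE 0.12, FDR 2.29e-09) and -0.57 (SE 0.13, FDR 0.000378), and Lifr by -0.73 (SE 0.12, FDR 8.33e-07) and -0.46 (SE 0.13, FDR 0.00495). Stat3 changed by -0.54 (SE 0.11, FDR 4.79e-05) in the high fraction. In the middle fraction its -0.29 (SE 0.104, FDR 0.0448) lost the call without any replicate of C1MDT and without replicate 2 or 3 of C1MV (-0.18 without C1MV replicate 2, FDR 0.329), and when both groups were fitted alone (FDR 0.0665). Jak1 was higher in C1HDT by 0.32 (SE 0.08, FDR 0.00247), a call lost without C1HDT replicate 2 (0.22, FDR 0.0768). Socs3 was not called in either, with intervals of -0.91 to 0.12 and -0.73 to 0.31. Whether the effect of duration differed between the fractions was tested as well, and 0 of 9 members and 0% of all genes passed in edgeR, with 2 members and 1284 genes under an unadjusted p of 0.05. DESeq2 called 0 members and 20 genes. The share of counts without a feature or ambiguous separated the same groups, at 5.30 to 5.58% in C1MDT against 5.82 to 7.08% in C1MV. It was 5.01 to 5.62% in C1HDT against 6.03 to 7.01% in C1HV. Both kept groups also lay below C1T (6.77 to 7.06%), and the part of this share was not tested.

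**Figure D3:**
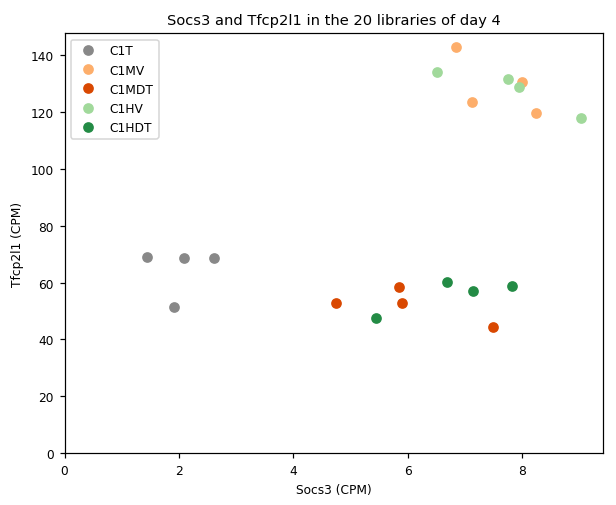
Socs3 (x axis, CPM) and Tfcp2l1 (y axis, CPM) in the 20 libraries of day 4, with a point for each library and a colour for each group. Socs3 is lowest in C1T at 1.44 to 2.61 CPM, and Tfcp2l1 is at 118 to 143 CPM in C1MV and C1HV against 44.4 to 69.1 in the other 3 groups.

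**Figure D4:**
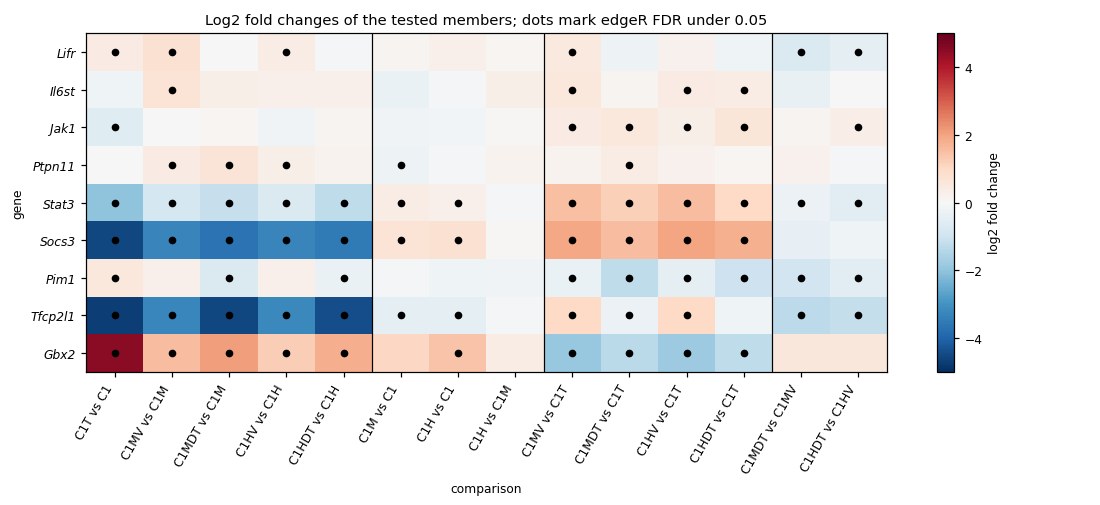
Log2 fold changes of the 9 tested members (rows) in the 14 comparisons of groups (columns), where colour gives the change and a dot marks FDR under 0.05 in edgeR. The vertical lines separate day 4 vs day 0, the day 0 groups, day 4 vs C1T, and kept vs withdrawn inducers, and the third column of the day 0 block (C1H vs C1M) has no dot.

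Markers of several cell states moved along with these genes, and their part in the results was not tested. In bulk RNA, fewer cells of a type and less RNA per cell cannot be told apart. All 8 endoderm markers (Gata4, Gata6, Sox17, Sox7, Foxa2, Dab2, Col4a1 and Lama1) were higher than in C1T in each of the 4 other day 4 groups. Their summed level ran from 41.8 to 61.6 CPM in C1T, from 703 to 1085 in C1MV, from 906 to 982 in C1HV, from 1305 to 1477 in C1MDT and from 1198 to 1501 in C1HDT. Lifr, Il6st and Stat3 are also expressed in endoderm of the early embryo. The summed level of 8 naive markers (Zfp42, Nanog, Esrrb, Klf2, Prdm14, Dppa3, Nr0b1 and Tcl1) ran from 407 to 522 CPM in C1T, from 826 to 1006 in C1MV and from 700 to 813 in C1HV. With inducers kept it ran from 284 to 348 CPM in C1MDT and from 261 to 404 in C1HDT, so that the group medians fell in the same order as the means of Tfcp2l1. Against C1T, 6 of the 8 were higher and 1 lower in C1MV, 5 and 1 in C1HV, 1 and 4 in C1MDT and 2 and 4 in C1HDT. The 6 formative epiblast markers summed to 1390 to 1664 CPM in C1T, 1081 to 1231 in C1MDT, 1110 to 1238 in C1HDT, 681 to 776 in C1MV and 743 to 787 in C1HV. C1T, where Gbx2 was highest, had the highest of these sums, and 5 of the 6 were lower than in C1T in C1MV and C1HV, 2 in C1MDT and 3 in C1HDT, with 0 higher. Neural markers summed to 172 to 206 CPM in C1T and 208 to 281 in the other day 4 groups, but the 5 markers went both ways. Against C1T, 1 was higher and 1 lower in C1MV (median log2 fold change -0.051), 2 and 1 in C1HV (0.038), 3 and 1 in C1MDT (0.604) and 4 and 1 in C1HDT (0.62). Mesoderm markers summed to between 11.9 and 28.3 CPM over all of day 4.

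Of 67 further genes of the pathway, 61 were tested, and in C1T vs C1 9 were higher and 24 lower, where 24.4% and 24.9% of all tested genes passed in these directions. The median log2 fold change of the 61 was -0.22, where that of all tested genes was 0.0084. IL-6 family ligands were barely detected. Lif itself had 0 to 6 counts per library, Il6 had 0 in every library, and of the 5 of 10 ligand genes that were tested 0 passed in C1T vs C1. Ebi3, a subunit of interleukins 27 and 35, had 0 to 3 counts in the C1T libraries and 6 to 13 in those of C1HDT (1.91, SE 0.64, FDR 0.0133). Cntf, the ciliary neurotrophic factor gene, had 1 to 5 counts in C1T and 0 to 2 in C1HDT (-2.55, SE 1.03, FDR 0.0429).

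Cntfr, the receptor chain for that factor, was the only one of 4 other tested receptor genes to pass in C1T vs C1. Its mean was 2.68 CPM in C1 and 32.1 in C1T, with changes of 3.57, SE 0.31, FDR 6.01e-21 from C1 to C1T and -2.12, SE 0.25, FDR 3.68e-13 from C1T to C1HDT. Of the 9 other JAK and STAT genes, 0 were higher and 6 lower in C1T vs C1 (24.4% and 24.9% of all genes), with a median log2 fold change of -1.24. Stat2, a transducer of type I interferon, fell from 102 to 25.4 CPM (-1.99, SE 0.13, FDR 2.96e-31), Jak3 from 10.9 to 2.703 (-1.92, SE 0.37, FDR 3.53e-06) and Stat5b from 10.6 to 4.02 (-1.44, SE 0.33, FDR 9.1e-05). In C1HDT vs C1T 2 of the 9 were higher and 0 lower (17.4% and 16.1% of all genes), and these were Stat5b (1.46, SE 0.32, FDR 8.13e-05) and Stat2 (0.896, SE 0.14, FDR 1.69e-08).

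Of 14 negative regulators, 2 were higher and 2 lower in C1T vs C1 (24.4% and 24.9% of all genes), with a median of -0.0047. Socs2, a relative of Socs3 better known for restraining growth hormone signalling, rose from 102 to 187 CPM (0.87, SE 0.09, FDR 9.95e-16) while Socs3 fell. Pias2, which encodes a SUMO ligase, fell (-1.07, SE 0.09, FDR 4.42e-23), and Ptpn1, which encodes a tyrosine phosphatase, rose (0.44, SE 0.11, FDR 0.000193). In C1HDT vs C1T 0 were higher and 3 lower (17.4% and 16.1%), led by Socs4 (-0.71, SE 0.18, FDR 0.0007) and Socs2 (-0.49, SE 0.09, FDR 1.11e-06). Of 11 adaptors of the ERK and PI3K branches, 2 were higher and 5 lower in C1T vs C1 (24.4% and 24.9% of all genes). Mapk3, the gene of ERK1, rose from 27.7 to 82.8 CPM (1.599, SE 0.15, FDR 4e-15). The PI3K subunit gene Pik3r1 fell (-0.68, SE 0.16, FDR 0.000119), and Gab2 fell as well, from 2.86 CPM to 0.626, which is 1 or 2 counts per library. In C1HDT vs C1T 3 were higher and 1 lower (17.4% and 16.1%), with Mapk3 (0.75, SE 0.12, FDR 1.91e-07) and the kinase gene Akt1 (0.74, SE 0.13, FDR 1.67e-06) the largest.

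Of the 18 further genes known as STAT3 targets, in C1T vs C1 4 were higher and 11 lower (24.4% and 24.9% of all genes), with a median log2 fold change of -1.17. Klf4, a transcription factor of the naive state, fell from 1285 to 40.01 CPM (-4.997, SE 0.12, FDR 7.48e-41). Gadd45g, a stress response gene that also marks early neural commitment, rose from 4.36 to 267 CPM (5.904, SE 0.21, FDR 4.37e-27). Myc was called higher (4.33, SE 0.98, FDR 8.08e-05), on 0 to 1 counts per library in C1 and 0 to 13 in C1T. Against C1T, 9 of the 18 were higher and 4 lower in C1MV (15.3% and 14.9% of all genes), and 9 and 3 in C1HV (13.7% and 14.3%). With inducers kept it was 4 and 4 in C1MDT (16.9% and 16.5%) and 5 and 3 in C1HDT (17.4% and 16.1%). The medians were 0.66, 0.55, 0.13 and 0.07 in the same order. Klf4 was higher in C1MV (1.59, SE 0.13, FDR 1.05e-15) and C1HV (1.36, SE 0.13, FDR 1.25e-12) and not called in C1MDT (0.13, SE 0.14, FDR 0.539) or C1HDT (0.08, SE 0.14, FDR 0.714), side by side with the values for Tfcp2l1 above. Gadd45g was lower in C1HDT (-1.69, SE 0.13, FDR 1.03e-14), and Bcl2l1, which encodes the survival factor BCL-XL, was higher (0.91, SE 0.13, FDR 3.11e-08).

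**Figure D5:**
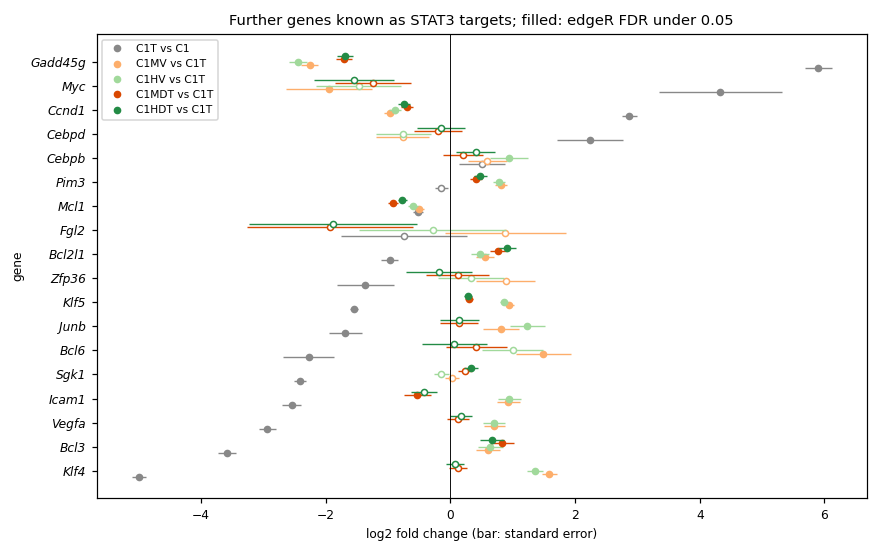
Log2 fold changes (points, edgeR) and standard errors (bars) of 18 further genes known as STAT3 targets in C1T vs C1 and in each other day 4 group vs C1T; filled points passed FDR 0.05 and open points did not. From C1 to C1T, Klf4 is lowest at -4.997 and Gadd45g highest at 5.904.

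Across the 32 libraries the log2 CPM of Socs3 was correlated with that of Stat3 (Pearson's r = 0.90) and of Tfcp2l1 (0.94), and inversely with Gbx2 (-0.85). Over the 20 libraries of day 4, r was 0.89 for Socs3 and Stat3, 0.40 for Socs3 and Tfcp2l1 and -0.86 for Socs3 and Gbx2. These are descriptions, since libraries of a group share their condition and the coefficients follow the group means. The tested genes most like Socs3 over the 32 libraries, among 9306 whose mean log2 CPM reached 3, were Atp6v1a, a subunit gene of the vacuolar proton pump (r = 0.986), Mpzl2, an adhesion gene (0.986), and Wdtc1 (0.976). Those most like Tfcp2l1 were the transcription factor genes Tbx3 (0.994) and Klf4 (0.993) and the autophagy receptor gene Calcoco2 (0.992). Those most like Gbx2, among 9307, were the kinase gene Pak1 (0.944), the noncoding RNA Mirg (0.936) and the ubiquitin ligase gene G2e3 (0.917).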

How the data were processed

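The authors deposited counts, a table per library of whole-number counts of uniquely aligned QuantSeq reads per Ensembl gene, without normalization. QuantSeq is a library kit that reads the 3′ end of transcripts. Per the methods, bbduk trimmed the reads, STAR placed them on mm10 and htseq-count assigned them to genes. Its strand setting is not given in the sources used here. Rows for reads without a feature or with an ambiguous or non-unique alignment stayed out of library sizes. As a share of the sum over all rows of a library, they came to 49.4 to 56.4% (not unique) and 5.01 to 11.5% (no feature or ambiguous). The latter share did not overlap between the days (9.27 to 11.5% at day 0 and 5.01 to 7.08% at day 4). Of 31053 gene rows, 30934 are named by GENCODE on GRCm38.

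The 15280 genes that reached 1 CPM in 4 or more libraries were fitted with edgeR 4.0.16 in R 4.3.3 (TMM factors, robust quasi-likelihood test) over all 8 groups, and p-values were adjusted over these genes by the Benjamini-Hochberg method. SE was taken as the log2 fold change divided by the square root of F, and log2 CPM used a prior count of 2. The groups come from the labels, no library was left out, and no pair of libraries held identical counts. In simulated data, changes were planted in C1T alone and in a small part of the 14846 genes tested. There edgeR recovered 90% of 2-fold and 100% of 4-fold changes in C1T vs C1, and 69% and 98% in the C1MV interaction. It made 203 and 179 calls, against 7528 and 3443 in the measured data. Of the simulated calls, 6.4% and 6.7% were false. Recovery was not split by level, so these rates may not hold for Gbx2 at day 0 or Socs3 in C1T. The alternatives were RLE factors, library size only, DESeq2 1.42.0, no filter, 1 CPM in all libraries, a replicate block, fits restricted to the groups in question, and omission of single libraries. The members and the lists were chosen with earlier results of these data known. From the lists, the text names the 3 largest changes that passed in C1T vs C1 and the 2 largest in C1HDT vs C1T, and also any gene that defines a list and was at the floor. The likeness genes are the 3 with the highest r for Socs3, Tfcp2l1 and Gbx2. Lif and Stat5a were named outside this rule, Lif as the ligand and Stat5a for its overlap with Stat3. The floor of 3 counts covers counting error only.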

Additional observations from a re-analysis of the deposited data

Results flagged for a closer look

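Of 72 sets of 4 libraries (9 members in 8 groups, without Osmr, which was at the floor), 6 held a library whose gap to the nearest other, over the range, exceeded Dixon's 95% critical value, where chance gives about 1 in 20. They were Lifr in C1 replicate 3 at 32.2 CPM (others 44.6 to 45.9), Pim1 in C1HDT replicate 1 at 65.3 (others 52.6 to 54.5), Tfcp2l1 in C1M replicate 2 at 1159 (others 1255 to 1271), Tfcp2l1 in C1T replicate 3 at 51.5 (others 68.5 to 69.1), Gbx2 in C1T replicate 2 at 32.5 (others 23.5 to 23.99) and Gbx2 in C1HDT replicate 1 at 15.6 (others 8.51 to 9.64).

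The change from day 0 to day 4 differed from that in C1T, by a test of the difference itself in edgeR, for 23 of 36 differences tested, where 21.9 to 25.2% of all genes passed in the 4 comparisons. In C1MV the log2 differences were 0.87 for Il6st, 0.59 for Jak1, 0.44 for Ptpn11, 1.13 for Stat3, 1.25 for Socs3, 1.46 for Tfcp2l1 and -2.95 for Gbx2. In C1MDT they were 0.71 for Jak1, 0.64 for Ptpn11, 0.84 for Stat3, -1.24 for Pim1 and -2.402 for Gbx2. In C1HV they were 0.41 for Jak1, 1.26 for Stat3, 1.23 for Socs3, 1.48 for Tfcp2l1 and -3.25 for Gbx2. In C1HDT they were -0.49 for Lifr, a call lost when any of 9 of the 16 libraries was left out, 0.73 for Jak1, 0.72 for Stat3, 1.02 for Socs3, a call lost when any of 7 of the 16 libraries was left out and under 3 other settings, -0.85 for Pim1 and -2.699 for Gbx2.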

How the results depend on the processing

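No direction of a called member was reversed under any alternative. The count of members called in C1H vs C1 was 4, and 2 to 3 with a library left out, with 2 without C1 replicate 1. The other counts stayed within 1.5 times their values in all alternatives run. Replicate numbers did not pair the libraries: for libraries that share a number, the deviations from the group means correlated at -0.0016 on average, and 0 of 112 pairs exceeded 0.1. With a replicate block, the count in C1T vs C1 stayed 7 and that in C1H vs C1 stayed 4, and Ptpn11 in C1M vs C1 (FDR 0.0546) and Stat3 in C1MDT vs C1MV (FDR 0.05) were the calls lost. With 1 CPM required in all libraries 10233 genes were tested and Gbx2 was not among them. Library size alone moved the median of all genes to 0.12 in C1M vs C1 and in C1H vs C1, and to -0.14 in C1HDT vs C1H. Calls lost under this scaling were Pim1 in C1MV vs C1T (FDR 0.0753), Ptpn11 in C1M vs C1 (0.152) and the Socs3 difference for C1HDT (0.0566). The last 2 were also lost with no filter (0.0932 and 0.069), and the Socs3 difference under DESeq2 (0.073). With the groups compared fitted alone, Gbx2 in C1H vs C1 (0.0586) and Stat3 in C1MDT vs C1MV (0.0665) were lost. Calls gained, by 1 to 4 of these settings each, were Il6st in C1MDT vs C1MV, Jak1 in C1HV vs C1H and in C1M vs C1, Lifr in C1H vs C1, Pim1 in C1HV vs C1H, Ptpn11 in C1HV vs C1T and the Tfcp2l1 difference for C1HDT. The cause was not tested. Depth limits Gbx2 at day 0, Socs3 in C1T and Osmr throughout.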
